A study of Mus musculus with 9 samples.

Results

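The genes described are 10 receptor tyrosine kinases: the neurotrophin receptors Ntrk2 (TrkB) and Ntrk3 (TrkC), the ErbB receptors Egfr, Erbb2, Erbb3 and Erbb4, and the receptors Igf1r, Met, Ret and Pdgfra. They were chosen by symbol from the 21210 genes of the deposited table, and all 10 were found, each in 1 row. Expression was measured by RNA-seq in 9 libraries. The cells came from lateral cortices of mouse embryos of strain C57BL/6, taken on embryonic day 14.5 and sorted by fluorescence. Neurons were the cells positive for the Tubb3 reporter, a neuronal beta-tubulin. Differentiating progenitors were positive for the Btg2 reporter, a gene of progenitors about to make neurons, and proliferating progenitors were negative for it. Each population had 3 libraries. All embryos carried both reporters, given as Btg2GFP/Tubb3GFP in the genotype label, while the titles name RFP for the Btg2 gate, and the groups follow the titles. Each library was a pool of sorted cells from more than 3 embryos of different litters, so a value is a mean over many cells and animals. In such bulk samples, fewer cells of a type and less RNA per cell cannot be told apart.

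A receptor tyrosine kinase spans the cell membrane, and many pair with another receptor when a ligand binds. Once active, such a receptor phosphorylates itself and adaptor proteins that feed the Ras-MAP kinase and PI3 kinase-Akt pathways. ErbB2 binds no known ligand and works as the partner of the other ErbB receptors, ErbB3 has a weak kinase, and ErbB4 is a receptor for neuregulins. In the embryonic brain these receptors are known for roles in progenitor division (Egfr, Igf1r, ErbB2 in radial glia), in interneuron migration (ErbB4), and in the survival and growth of neurons (TrkB, TrkC, Ret). Ntrk2 and Ntrk3 also make truncated receptors without a kinase, which a value per gene does not separate.

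The deposited totals were 21442620 to 22076409 normalised read counts in neurons, 18420135 to 19077173 in differentiating progenitors and 17531558 to 18201880 in proliferating progenitors. From the steps between small values, the reads behind them were estimated at 12657785 to 27573435 per library. The reporter genes followed the gates: Btg2 stood at 2645 to 3390 in neurons, at 14022 to 19983 in differentiating progenitors and at 7032 to 9336 in proliferating progenitors, and Tubb3 at 39932 to 50230, 9711 to 13097 and 1158 to 2511 in the same order. The summed level of 7 radial glia markers was 5720 to 7082 in neurons, 45333 to 68053 in differentiating progenitors and 101915 to 120564 in proliferating progenitors. Replicate 1 of every population stood apart: its deviations from the population mean correlated at -0.545 to -0.64 across genes with those of replicates 2 and 3 of the other populations. Replicates 2 and 3 of different populations correlated at 0.272 to 0.428 with each other. Deviations from a mean of 3 libraries sum to 0, so negative values alone would not set replicate 1 apart. Calls that differ in replicates 2 and 3 alone are given beside each gene. Values below are normalised read counts, group values are means ± SD over 3 libraries (n = 3), and log2 changes ± SE and adjusted p-values come from limma on log2(value + 1) over 15828 tested genes, with 0.05 as the threshold.

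The largest differences among these genes were an exchange within the ErbB family: neurons held almost no Erbb2 and Egfr transcripts and much Erbb4, and the progenitors the reverse for Erbb2 and Erbb4. Ntrk2 had its lowest level in differentiating progenitors, between higher levels in neurons and in proliferating progenitors. Igf1r was the most abundant of the 10 genes per kilobase of deposited gene length in all 3 populations, and its level was somewhat higher in neurons. Met and Ret were low and highest in neurons, Pdgfra was low and lowest in neurons, and Erbb3 was at 8 or below in every library.

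**Figure D1:**
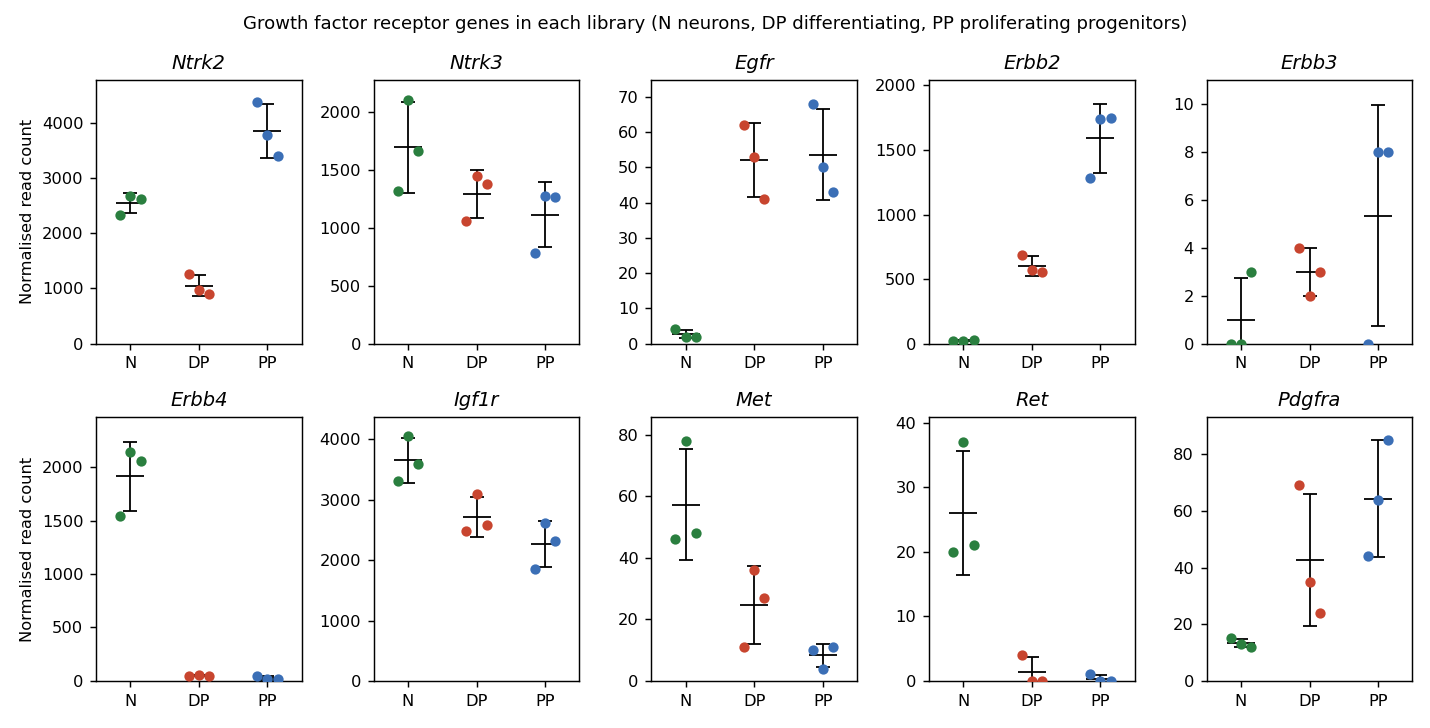
Each panel plots 1 gene in normalised read counts on its own linear axis, with 1 point per library, the mean as a horizontal bar and the SD over 3 libraries as whiskers. Erbb4 lies at 1541 to 2146 in neurons and at 55 or below in the other 6 libraries, while Erbb2 lies at 27 or below in neurons and at 551 or above elsewhere.

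Erbb2, the ligand-less partner receptor, stood at 21, 18 and 27 in neurons, at 689, 567 and 551 in differentiating progenitors and at 1284, 1742 and 1744 in proliferating progenitors. No library of one population reached the range of another. It was lower in neurons than in proliferating progenitors (log2 change -6.12 ± 0.19, adjusted p = 2.18e-08) and than in differentiating progenitors (log2 change -4.72 ± 0.19, adjusted p = 1.29e-07). It was also lower in differentiating than in proliferating progenitors (602.3 ± 75.5 against 1590.0 ± 265.0, log2 change -1.39 ± 0.19, adjusted p = 0.000779). In the annotation of GRCm38, the exons of Erbb2 share at most 9 bases with those of Mien1 on the other strand, and Mien1 had its highest level in neurons, with 756 to 917 in neurons, 300 to 489 in differentiating progenitors and 237 to 258 in proliferating progenitors.

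Egfr, the receptor of EGF and TGF-alpha, was expressed at a low level in progenitors and close to 0 in neurons. Its values were 4, 2 and 2 in neurons, 62, 53 and 41 in differentiating progenitors and 68, 50 and 43 in proliferating progenitors. The neuron libraries lay below all the others, while the ranges of the progenitor populations overlapped. Neurons differed from differentiating progenitors (log2 change -3.88 ± 0.32, adjusted p = 6.9e-06) and from proliferating progenitors (log2 change -3.92 ± 0.32, adjusted p = 4.29e-06). Between differentiating and proliferating progenitors the log2 change was -0.04 ± 0.32 (adjusted p = 0.962), while Erbb2 was called lower there.

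Erbb4, the neuregulin receptor, had the opposite course. It stood at 1541, 2146 and 2055 in neurons, at 48, 55 and 49 in differentiating progenitors and at 46, 19 and 18 in proliferating progenitors. All neuron libraries lay above the other 6, and the lowest differentiating progenitor library was just above the highest proliferating progenitor library. The rise in neurons was 36.7-fold over differentiating progenitors on the log2(value + 1) scale (log2 change 5.20 ± 0.33, adjusted p = 1.35e-06) and 72.5-fold over proliferating progenitors (log2 change 6.18 ± 0.33, adjusted p = 2.8e-07). The difference between differentiating and proliferating progenitors (50.7 ± 3.8 against 27.7 ± 15.9, log2 change 0.98 ± 0.33) did not pass (adjusted p = 0.0577). It passed with replicate number as a block (adjusted p = 0.0246), from replicates 2 and 3 only (log2 change 1.44, adjusted p = 0.00014) and without proliferating progenitor replicate 1, its highest library there (log2 change 1.40, adjusted p = 0.00108).

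Cortical interneurons, which enter the cortex from the ganglionic eminences, are a known site of ErbB4. All 10 interneuron markers examined were called higher in neurons than in proliferating progenitors, beside 32.2% of all tested genes. Against differentiating progenitors 8 of 10 were higher in neurons, beside 27.6%. The markers Sst and Npy passed the filter on low values through the neuron libraries alone, so their calls are no support. The summed level of all 10 interneuron markers was 8881 to 10105 in neurons, 883 to 3465 in differentiating progenitors and 332 to 1237 in proliferating progenitors. Gad1, a GABA-synthesising enzyme, stood at 1225 to 1473 in neurons, 11 to 19 in differentiating progenitors and 4 to 25 in proliferating progenitors, and Lhx6 at 1449 to 1881, 4 to 12 and 5 to 24 in the same order. In proliferating progenitors, replicate 1 was highest for Dlx1 (460, 122 and 30 in replicates 1, 2 and 3) as it was for Erbb4 (46, 19 and 18), and so were the neuron markers Dcx (1944, 778 and 499) and Tbr1 (319, 109 and 106). In the other populations the order of replicates differed: Dlx1 stood at 1921, 1383 and 1305 in neurons, where Erbb4 stood at 1541, 2146 and 2055, and at 1568, 793 and 234 in differentiating progenitors, where Erbb4 stood at 48, 55 and 49. The ganglionic eminences were removed at dissection, per the labels' protocols. None of the 10 markers was at 0 in every library, and the part of interneurons in the Erbb4 level was not tested.

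Erbb3, a neuregulin receptor of glia and neural crest derivatives, was listed at 0, 0 and 3 in neurons, at 4, 2 and 3 in differentiating progenitors and at 0, 8 and 8 in proliferating progenitors. It did not pass the filter on low values, which asked for 10 or more in 3 or more of the 9 libraries, and was therefore not among the tested genes. With no filter, its adjusted p was 0.203 for neurons against proliferating progenitors, 0.28 against differentiating progenitors, and 0.961 between the progenitor populations. Sox10, which marks neural crest and oligodendrocyte lineage cells, was at 0 in all neuron libraries and at 6 or below in the others.

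Per kilobase of deposited gene length, Erbb4 made up 96.6% to 98.0% of the ErbB family signal in neurons. In differentiating progenitors it made up 2.73% to 3.76%, and in proliferating progenitors 0.427% to 1.45%. Erbb2 made up 1.95% to 3.12% in neurons, 92.0% to 93.0% in differentiating progenitors and 96.2% to 98.1% in proliferating progenitors. Egfr had its largest share in differentiating progenitors, 3.18% to 3.96%, against 0.0996% to 0.274% in neurons and 1.11% to 2.34% in proliferating progenitors. The family was thus carried by a single receptor gene in every library, by Erbb4 in neurons and by Erbb2 in the progenitors.

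**Figure D2:**
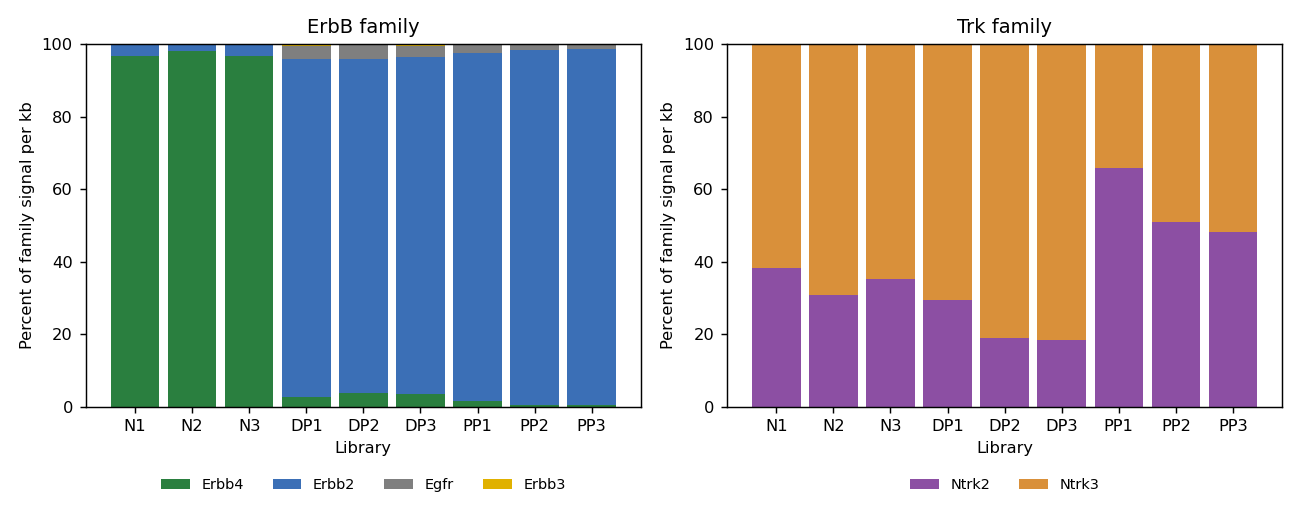
Bars show, for each library (N neurons, DP differentiating progenitors, PP proliferating progenitors, numbered by replicate), the percent of the ErbB family signal (left) and of the Trk signal (right) that each gene holds, in normalised read counts per kilobase. Erbb4 fills at least 96.6% of the neuron bars and Erbb2 at least 92.0% of the progenitor bars, and Ntrk2 takes at most 29.5% of the Trk signal in differentiating progenitors.

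Because Erbb2 and Egfr were lowest and Erbb4 highest in neurons, the sequences around their start sites are shown, from RefSeq on build GRCm38.p6, 300 bases each from 250 before to 50 after the start. Capitals mark the E-box CANNTG, the core motif of basic helix-loop-helix factors, searched in these letters, which read the same on the other strand.
Erbb2 (chr11:98412234-98412533, plus strand): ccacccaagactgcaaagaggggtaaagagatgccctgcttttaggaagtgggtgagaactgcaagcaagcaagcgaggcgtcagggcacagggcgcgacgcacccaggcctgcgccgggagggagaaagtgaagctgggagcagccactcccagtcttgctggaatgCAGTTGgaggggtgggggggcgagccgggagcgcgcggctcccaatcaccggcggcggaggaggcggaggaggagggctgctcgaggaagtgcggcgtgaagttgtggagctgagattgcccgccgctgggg
Egfr (chr11:16751953-16752252, plus strand): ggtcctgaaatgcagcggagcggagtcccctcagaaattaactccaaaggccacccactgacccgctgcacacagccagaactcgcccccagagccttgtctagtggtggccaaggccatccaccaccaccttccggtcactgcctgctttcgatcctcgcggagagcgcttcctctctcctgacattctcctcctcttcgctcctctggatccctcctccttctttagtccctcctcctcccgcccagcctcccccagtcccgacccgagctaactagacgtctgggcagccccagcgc
Erbb4 (chr1:69108010-69108309, minus strand): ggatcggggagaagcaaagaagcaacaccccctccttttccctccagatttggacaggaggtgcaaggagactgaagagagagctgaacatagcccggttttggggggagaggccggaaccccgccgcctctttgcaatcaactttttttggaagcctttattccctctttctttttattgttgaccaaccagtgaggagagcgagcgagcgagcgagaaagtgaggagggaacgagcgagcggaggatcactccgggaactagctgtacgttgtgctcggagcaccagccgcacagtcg
The Erbb2 window held 1 E-box and the Egfr and Erbb4 windows held 0, while 72.1% of 27025 promoter windows of the same length, 1 per gene, held at least 1. All 3 windows were rich in CpG, with 21 CpG in Erbb2, 15 in Egfr and 17 in Erbb4 against a median of 7 over all promoters. The table matched 7 of the 10 genes, and Ntrk3, Erbb3 and Ret had no entry.

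The neurotrophin receptors differed from each other. Ntrk2, the receptor of BDNF, stood at 2338, 2684 and 2621 in neurons, at 1269, 976 and 901 in differentiating progenitors and at 4380, 3790 and 3400 in proliferating progenitors. The 3 ranges did not overlap, and differentiating progenitors were lowest. Ntrk2 fell in differentiating against proliferating progenitors to 0.271 of the level (log2 change -1.89 ± 0.14, adjusted p = 4.44e-05). It was 2.45-fold higher in neurons than in differentiating progenitors (log2 change 1.29 ± 0.14, adjusted p = 5.3e-05) and lower in neurons than in proliferating progenitors (log2 change -0.59 ± 0.14, adjusted p = 0.00529). These comparisons share libraries, so they are not independent of each other.

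Ntrk3, the receptor of neurotrophin-3, had small differences between populations. It stood at 1318, 2103 and 1665 in neurons, at 1054, 1447 and 1376 in differentiating progenitors and at 786, 1277 and 1267 in proliferating progenitors. Replicate 1 was lowest in each population, and differentiating progenitors overlapped both other groups. Neurons were higher than proliferating progenitors (log2 change 0.62 ± 0.23, adjusted p = 0.0424), a call near the threshold that ended without any 1 of 5 libraries (adjusted p = 0.153 without neuron replicate 2, 0.0922 without neuron replicate 3, 0.054 and 0.058 without replicates 2 and 3 of differentiating progenitors and 0.129 without proliferating progenitor replicate 1). It also ended with no intensity trend (adjusted p = 0.0622) and with the groups compared fitted alone (adjusted p = 0.0598). The authors' deposited table gives an adjusted p of 0.066 for it. Against differentiating progenitors, the log2 change of 0.38 ± 0.23 in neurons did not pass (adjusted p = 0.205), but did with the block (adjusted p = 0.00181) and in replicates 2 and 3 alone (adjusted p = 0.0102). For differentiating against proliferating progenitors, the log2 change of 0.24 ± 0.23 (adjusted p = 0.534) passed with the block (adjusted p = 0.0327).

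The share of Ntrk2 in the summed signal of Ntrk2 and Ntrk3 per kilobase was 30.7% to 38.1% in neurons, 18.5% to 29.5% in differentiating progenitors and 48.2% to 65.9% in proliferating progenitors, with no overlap between populations. These shares rest on the deposited gene lengths, 15094 bases for Ntrk2 and 5241 for Ntrk3.

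Igf1r, the receptor through which IGF1 and IGF2 act, stood at 3317, 4050 and 3585 in neurons, at 2478, 3094 and 2584 in differentiating progenitors and at 1854, 2610 and 2324 in proliferating progenitors. All neuron libraries were above the others, and the progenitor populations overlapped. It was 1.62-fold higher in neurons than in proliferating progenitors (log2 change 0.70 ± 0.14, adjusted p = 0.00209) and 1.34-fold higher than in differentiating progenitors (log2 change 0.43 ± 0.14, adjusted p = 0.031). The second call ended without any 1 of 4 libraries (adjusted p = 0.114 without neuron replicate 2, 0.0697 without neuron replicate 3 and 0.0899 and 0.09 without replicates 1 and 3 of differentiating progenitors), and the authors' deposited table gives an adjusted p of 0.054 for it. Between differentiating and proliferating progenitors the log2 change of 0.27 ± 0.14 did not pass (adjusted p = 0.217, but 0.00408 with the replicate block).

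Met, the receptor of hepatocyte growth factor, stood at 46, 78 and 48 in neurons, at 11, 36 and 27 in differentiating progenitors and at 10, 4 and 11 in proliferating progenitors. The neuron libraries were above all others, and a differentiating progenitor library equalled the highest proliferating progenitor library. Neurons were higher than proliferating progenitors (log2 change 2.70 ± 0.50, adjusted p = 0.00109). Against differentiating progenitors, the log2 change of 1.29 ± 0.50 in neurons did not pass (adjusted p = 0.0537), and passed with the block (0.0314) and without differentiating progenitor replicate 2 (0.0338) or proliferating progenitor replicate 2 (0.0388). For differentiating against proliferating progenitors the log2 change was 1.41 ± 0.50 (adjusted p = 0.0703), and the call was made with the block (adjusted p = 0.0329), from replicates 2 and 3 only (log2 change 2.05, adjusted p = 0.00715) and without differentiating progenitor replicate 1 (log2 change 1.89, adjusted p = 0.0156). The authors' deposited table gives an adjusted p of 0.025 for that step.

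Ret, the signalling receptor of the GDNF family, was found almost only in neurons, with 20, 37 and 21 there, 4, 0 and 0 in differentiating progenitors and 1, 0 and 0 in proliferating progenitors. It passed the filter through the neuron libraries alone, so that it had to differ between the groups, and its level stayed low. The summed values were 78 in neurons, 4 in differentiating progenitors and 1 in proliferating progenitors. Taken as reads, these give a ratio of 19.5 over differentiating progenitors (exact 95% interval 7.32 to 73.4) and of 78.0 over proliferating progenitors (13.6 to 3120.0), which covers counting error only. Its filtered limma calls are for that reason no support. With no filter on low values, limma gave a log2 change of 3.93 over differentiating progenitors (adjusted p = 0.000731) and of 4.37 over proliferating progenitors (adjusted p = 0.000274). Without any 1 of the 3 neuron libraries, and in replicates 2 and 3 alone, Ret did not pass the filter and had no call.

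Pdgfra, the PDGF receptor known from oligodendrocyte precursors and from meningeal fibroblasts, stood at 15, 13 and 12 in neurons, at 69, 35 and 24 in differentiating progenitors and at 44, 64 and 85 in proliferating progenitors. Neurons were below all other libraries, and the progenitor populations overlapped. It was lower in neurons than in differentiating progenitors (log2 change -1.48 ± 0.39, adjusted p = 0.0107) and than in proliferating progenitors (log2 change -2.14 ± 0.39, adjusted p = 0.00107). The log2 change of -0.67 ± 0.39 between differentiating and proliferating progenitors did not pass (adjusted p = 0.275), but did from replicates 2 and 3 only (log2 change -1.32, adjusted p = 0.00883) and without differentiating progenitor replicate 1 (log2 change -1.07, adjusted p = 0.0478). In the annotation of GRCm38, exons of Pdgfra overlap those of Gm42802 and Gm42803 on the other strand by at most 341 bases. Neither gene was used here, and whether the counting used the strand is not stated.

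Markers of other cells varied between libraries alongside Pdgfra. Meninges were removed at dissection, per the labels' protocols. The summed level of the 7 meningeal and fibroblast markers found was 11 to 48 in neurons, 81 to 159 in differentiating progenitors and 223 to 2962 in proliferating progenitors. Collagen Col3a1 stood at 83, 303 and 1516 in replicates 1, 2 and 3 of proliferating progenitors, where Pdgfra stood at 44, 64 and 85. In that population Hba-a1, a red blood cell globin, stood at 42073, 13373 and 15381. The 7 oligodendrocyte lineage markers, Pdgfra among them, summed to 220 to 269 in neurons, 466 to 569 in differentiating progenitors and 527 to 589 in proliferating progenitors. In differentiating progenitors, Olig2 stood at 153, 112 and 77 in replicates 1, 2 and 3, where Pdgfra stood at 69, 35 and 24. Sox10 was at 0 in neurons, at 4, 2 and 0 in differentiating progenitors and at 6, 3 and 2 in proliferating progenitors. The part of these cells in the Pdgfra level was not tested.

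**Figure D3:**
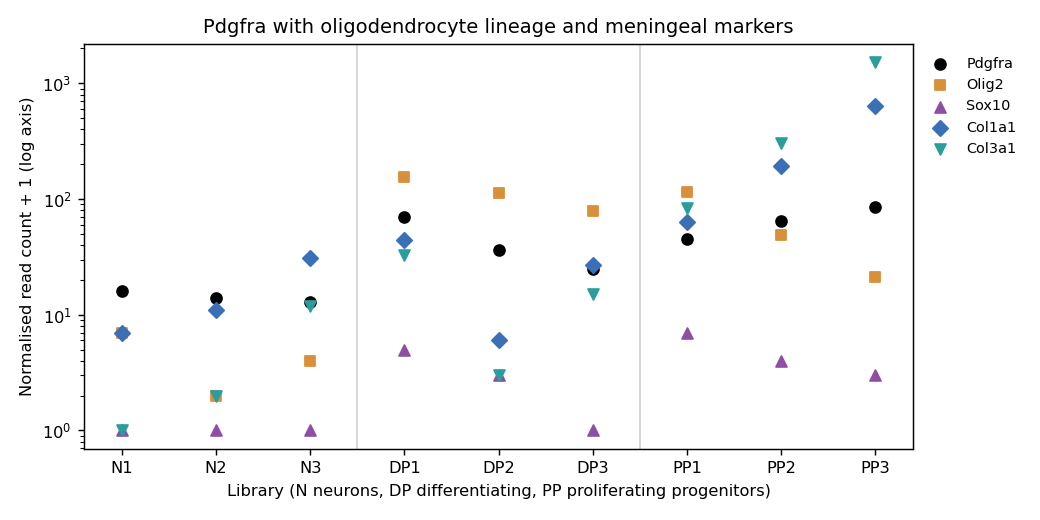
Points show Pdgfra, the oligodendrocyte lineage genes Olig2 and Sox10 and the collagens Col1a1 and Col3a1 in each library, as normalised read counts + 1 on a log axis. In proliferating progenitors Col3a1 ranges over 83, 303 and 1516 and Pdgfra over 44, 64 and 85, in the same order of libraries, and Sox10 is at 6 or below everywhere.

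Read by comparison, 9 of the 10 genes were tested. Neurons against proliferating progenitors gave 5 higher (Ntrk3, Erbb4, Igf1r, Met and Ret) and 4 lower (Ntrk2, Egfr, Erbb2 and Pdgfra), where 63.3% of all tested genes were called, 32.2% higher and 31.1% lower. Neurons against differentiating progenitors gave 4 higher (Ntrk2, Erbb4, Igf1r and Ret) and 3 lower (Egfr, Erbb2 and Pdgfra), where 54.0% of all tested genes were called, 27.6% higher and 26.4% lower. Differentiating against proliferating progenitors gave 0 higher and 2 lower (Ntrk2 and Erbb2), where 24.9% of all tested genes were called, 13.8% higher and 11.1% lower. At that step limma gave 2 members, Erbb4 and Met, as higher at an unadjusted p under 0.05. With the replicate block, Ntrk3, Erbb4, Igf1r and Met were called higher there, 4 in all. Ret, counted as higher in both neuron comparisons, had passed the filter through neurons alone, so these counts and the medians below support nothing about the members. The 22.2% called between the progenitor populations is near its background. Among all tested genes, 0.663% had a log2 change in neurons against proliferating progenitors as low as that of Erbb2 or lower, and 99.1% had one at or below that of Erbb4. The median log2 change of the 9 genes, Ret included, was 0.62 in neurons against proliferating progenitors, 0.43 in neurons against differentiating progenitors and 0.24 in differentiating against proliferating progenitors, beside -0.02, -0.01 and -0.02 over all tested genes.

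**Figure D4:**
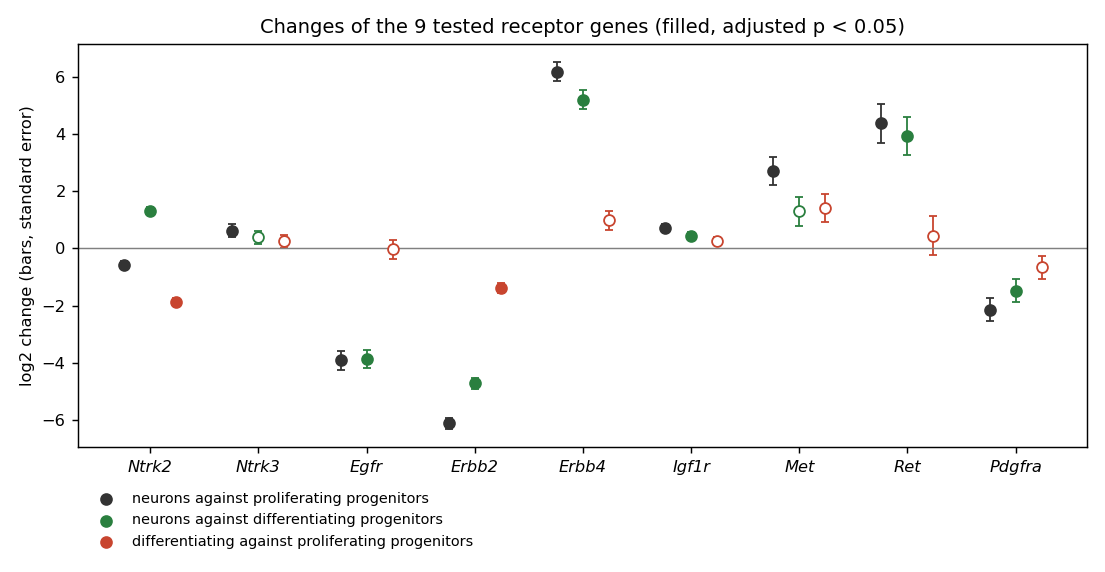
Points show the log2 change of each of the 9 tested genes in the 3 comparisons, with SE as bars, and filled points passed the threshold. Erbb2 (-6.12) and Erbb4 (6.18) mark the ends of the range in neurons against proliferating progenitors, and Ntrk2 is the gene with called changes of opposite sign, -1.89 between the progenitor populations and 1.29 in neurons against differentiating progenitors.

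Scaling mattered for the small changes. The authors' scaling leaves neurons with larger totals, and scaling every library to the same total shifted the median log2 change by -0.29 in neurons against proliferating progenitors, by -0.21 in neurons against differentiating progenitors and by -0.07 between the progenitor populations. Under it Ntrk3 was no longer called in neurons against proliferating progenitors (log2 change 0.33, adjusted p = 0.217), nor Igf1r in neurons against differentiating progenitors (log2 change 0.21, adjusted p = 0.195).

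The order of the genes by level per kilobase changed between populations. In neurons it ran Igf1r (816 ± 82.9), Ntrk3 (323 ± 75.1), Ntrk2 (169 ± 12.2), Erbb4 (155 ± 26.4) and Met (7.43 ± 2.32), then Erbb2, Ret, Pdgfra, Egfr and Erbb3, each below Met. Ntrk2 and Erbb4 overlapped there, as did Erbb2 and Ret, and Egfr and Erbb3. In differentiating progenitors it ran Igf1r (607 ± 73.6), Ntrk3 (247 ± 40.0), Erbb2 (116 ± 14.5) and Ntrk2 (69.5 ± 12.9), with no overlap between these neighbours, and the other 6 genes stood at 6.33 or below. In proliferating progenitors it ran Igf1r (506 ± 85.3), Erbb2 (305 ± 50.9), Ntrk2 (256 ± 32.7) and Ntrk3 (212 ± 53.5), with overlap between Erbb2 and Ntrk2 and between Ntrk2 and Ntrk3, and the other 6 genes stood at 9.55 or below. Igf1r stood clear of its neighbour in every population. This order rests on the deposited gene lengths, 4476 bases for Igf1r against 15094 for Ntrk2 and 12355 for Erbb4. By read count without length, Ntrk2 (3400 to 4380) was above Igf1r (1854 to 2610) in proliferating progenitors, while Igf1r was highest in neurons and differentiating progenitors.

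Genes with a like course were found by Pearson's r of log2(value + 1) over the 9 libraries, among 11352 other tested genes with a mean of at least 100. These r are descriptions, because the 9 libraries fall into 3 populations and any gene with the same order of populations scores high. Closest to Erbb2 were Boc, a Hedgehog co-receptor (r = 0.999), and Mcm4, a subunit of the replicative helicase (0.999). Closest to Egfr were Zfp191, Tgif2 and Sox6 (0.997 each), and closest to Erbb4 were Lrrtm3 (0.998), Dpp6 (0.998) and Mapt (0.997), which encodes the microtubule protein tau. Ntrk2 was matched by Cspg5 (0.992), Pmm1 (0.990) and Fgf13 (0.989), which were likewise lowest in differentiating progenitors, and Igf1r by Tmco3 (0.987) and Faim (0.985). For Ntrk3 they were Ap3d1 (0.989), Med15 (0.986) and Arrb2 (0.982), for Ret Iqcc (0.981), C1qtnf4 (0.976) and Frmd4a (0.973), for Met 1110034G24Rik (0.963), BC029214 and Rab2b (0.960 each), and for Pdgfra 2610027L16Rik (0.971), Fbxw8 (0.960) and Klhl21 (0.959).

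Ligand genes of these receptors changed in both directions. Of 28 listed, 24 were in the table and 14 passed the filter. In neurons against proliferating progenitors 6 were higher and 6 lower (4 and 6 with total-sum scaling), with a median log2 change of 0.44, beside 32.2% higher and 31.1% lower among all tested genes. In neurons against differentiating progenitors 6 were higher and 2 lower (median 0.21), or 5 and 3 with total-sum scaling, beside 27.6% and 26.4%. Of the 6 higher, 3 were left without neuron replicate 2, in both comparisons, and without neuron replicate 1 in the second. Without any 1 neuron library, Bdnf and Ntf3 did not pass the filter and had no call. The same held for Hgf without any 1 proliferating progenitor library. In differentiating against proliferating progenitors 0 were higher and 5 lower (median -0.39), beside 13.8% and 11.1%, and no ligand was higher with limma at an unadjusted p under 0.05 either. Without proliferating progenitor replicate 2 the 5 lower were 2. They were 3 without any 1 of 5 other libraries (neuron replicate 2, differentiating progenitor replicates 2 and 3, proliferating progenitor replicates 1 and 3), and 3 with the groups compared fitted alone. Without proliferating progenitor replicate 1, 1 ligand was higher.

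The neuregulins, ligands of ErbB3 and ErbB4, split by gene. Nrg3 stood at 517, 621 and 474 in neurons, at 47, 37 and 29 in differentiating progenitors and at 114, 84 and 78 in proliferating progenitors, and rose in neurons, as Erbb4 did (log2 change 3.82 ± 0.23 over differentiating progenitors, adjusted p = 9.13e-07). It was lower in differentiating than in proliferating progenitors (log2 change -1.27 ± 0.23, adjusted p = 0.00335). Nrg2 rose in neurons to 44.3 ± 6.7, against 6.0 ± 1.0 in differentiating progenitors (log2 change 2.69 ± 0.30, adjusted p = 5.6e-05). It would not have passed the filter on low values without the neuron libraries, so its call is no support. Nrg1 went the other way, with 419.3 ± 33.9 in neurons against 957.0 ± 126.0 in proliferating progenitors (log2 change -1.18 ± 0.12, adjusted p = 2.73e-05).

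Hbegf, a ligand of EGFR and ErbB4, rose to 137.7 ± 9.6 in neurons, against 31.0 ± 11.5 in differentiating progenitors (log2 change 2.17 ± 0.25, adjusted p = 6.93e-05). Igf2, a ligand of IGF1R, stood at 61, 30 and 26 in differentiating progenitors against 162, 239 and 515 in proliferating progenitors (log2 change -2.87 ± 0.46, adjusted p = 0.00206). In proliferating progenitors, Igf2 and the collagen Col3a1 (83, 303 and 1516) had the same order of replicates, and the part of meningeal cells in the Igf2 level was not tested. Hgf, the ligand of MET, stood at 2, 5 and 0 in differentiating progenitors against 50, 56 and 29 in proliferating progenitors (log2 change -4.08 ± 0.71, adjusted p = 0.00311), and at 2, 0 and 0 in neurons, where Met was highest. Hgf passed the filter on low values through the proliferating progenitor libraries alone, so its call is no support. Ntf3, Bdnf and Gdnf are named after their values were seen. Ntf3, the ligand of TrkC, stood at 57, 27 and 41 in neurons and at 5 or below in the other libraries, and Bdnf, the ligand of TrkB, at 11 to 19 in neurons, 6 to 7 in differentiating progenitors and 5 to 7 in proliferating progenitors. Gdnf was listed at 1 or 0 in all 9 libraries.

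**Figure D5:**
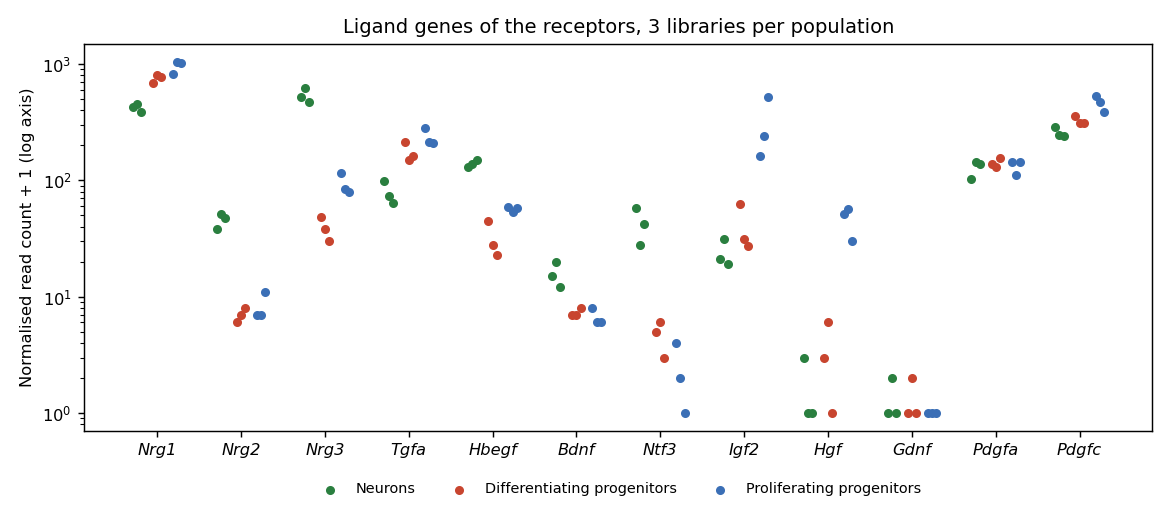
Points show ligand genes in each library as normalised read counts + 1 on a log axis, with neurons left, differentiating progenitors in the middle and proliferating progenitors right. Nrg3, Nrg2, Hbegf and Ntf3 are highest in neurons, while Nrg1, Igf2 and Hgf are highest in proliferating progenitors.

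Of 19 other receptors and co-receptors listed, 18 were in the table and 17 passed the filter. In neurons against proliferating progenitors 11 were higher and 4 lower (median log2 change 2.81), or 10 and 5 with total-sum scaling, beside 32.2% higher and 31.1% lower among all tested genes. In neurons against differentiating progenitors 10 were higher and 4 lower (median 0.70), or 9 and 5 with total-sum scaling, beside 27.6% and 26.4%. In differentiating against proliferating progenitors 8 were higher and 2 lower (median 0.62), or 7 and 2 with total-sum scaling, beside 13.8% and 11.1%. The stem cell factor receptor Kit stood at 5033, 5125 and 4769 in neurons, at 648, 919 and 795 in differentiating progenitors and at 220, 158 and 210 in proliferating progenitors. It rose in neurons over differentiating progenitors (log2 change 2.67 ± 0.16, adjusted p = 9.04e-07) and in differentiating over proliferating progenitors (log2 change 2.00 ± 0.16, adjusted p = 5.24e-05). Ngfr, the p75 neurotrophin receptor that pairs with Trk receptors, stood at 965, 975 and 967 in neurons, at 10, 7 and 20 in differentiating progenitors and at 15, 17 and 38 in proliferating progenitors (log2 change 6.30 ± 0.41 in neurons over differentiating progenitors, adjusted p = 1.77e-06). Lingo1, a partner of p75, rose with it to 1466 ± 184 in neurons, against 34.0 ± 7.0 in differentiating progenitors (log2 change 5.40 ± 0.34, adjusted p = 1.4e-06).

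Sort1 and Sorcs1, from the family of neurotrophin sorting receptors, moved apart. Sort1 rose to 5123 ± 325 in differentiating progenitors, against 3165 ± 143 in proliferating progenitors (log2 change 0.69 ± 0.08, adjusted p = 0.000265). Its relative Sorcs1 fell to 316.3 ± 32.0 in differentiating progenitors, against 933.7 ± 159 in proliferating progenitors (log2 change -1.55 ± 0.15, adjusted p = 0.000144). The relatives Sorcs3 and Sorcs2 are named after their values were seen. At that step Sorcs3 rose (52.0 ± 13.5 against 5.0 ± 3.0, log2 change 3.25 ± 0.47, adjusted p = 0.00119), and Sorcs2 did not pass (log2 change 0.21 ± 0.18, adjusted p = 0.467). Pdgfrb, the second PDGF receptor and a pericyte marker, fell with Pdgfra, to 6, 9 and 12 in neurons against 319, 407 and 470 in proliferating progenitors (log2 change -5.35 ± 0.26, adjusted p = 1.51e-07). The 12 endothelial and mural markers, Pdgfrb among them, summed to 98 to 143 in neurons, at most 390 in differentiating progenitors and 674 to 1539 in proliferating progenitors, and the part of these cells in the Pdgfrb level was not tested.

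Of 48 adaptors and effectors, all tested, 29 were higher and 10 lower in neurons than in proliferating progenitors (22 and 13 with total-sum scaling), and 23 higher and 7 lower than in differentiating progenitors (17 and 9). In differentiating against proliferating progenitors 16 were higher and 3 lower (12 and 5 with total-sum scaling). Their median log2 changes were 0.52, 0.33 and 0.17 in the order of these comparisons. Among all tested genes, 32.2% were higher and 31.1% lower in the first, 27.6% and 26.4% in the second, and 13.8% and 11.1% in the third. The 3 lower became 9 with the replicate block, 7 in replicates 2 and 3 alone and 5 without differentiating progenitor replicate 1. Kidins220, a Trk scaffold, rose to 27506 ± 1897 in neurons, against 6744 ± 919 in differentiating progenitors (log2 change 2.03 ± 0.12, adjusted p = 7.82e-07). The adaptor Grb2 rose to 2812 ± 68.7 against 1465 ± 90.7 in the same comparison (log2 change 0.94 ± 0.08, adjusted p = 6.96e-06). In differentiating against proliferating progenitors the adaptors Dok4 (1409 ± 305 against 188.3 ± 15.5, log2 change 2.88 ± 0.16, adjusted p = 1.13e-05) and Shc2 (843.0 ± 19.0 against 286.3 ± 48.6, log2 change 1.57 ± 0.13, adjusted p = 5.79e-05) rose with the PI3 kinase subunit Pik3r3 (4794 ± 585 against 1502 ± 159, log2 change 1.67 ± 0.12, adjusted p = 3.2e-05).

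Of 32 inhibitors and turnover genes, 30 were tested. In neurons against proliferating progenitors 15 were higher and 10 lower, in neurons against differentiating progenitors 13 and 7, and in differentiating against proliferating progenitors 9 and 6, with median log2 changes of 0.26, 0.15 and 0.08. With total-sum scaling they were 13 and 13, 11 and 8, and 9 and 7. The shares over all tested genes are those given with the adaptors. The 6 lower were 2 when differentiating progenitor replicate 2 was left out, and 3 when replicate 3 of either progenitor population was. Lrig1, which promotes the degradation of ErbB receptors, fell in neurons together with Erbb2 and Egfr, to 132, 196 and 181, against 1560, 1481 and 1606 in differentiating progenitors (log2 change -3.20 ± 0.16, adjusted p = 3.53e-07). Grb10, an inhibitor of insulin and IGF1 receptors, fell to 1046, 678 and 867 in neurons, against 14803, 13267 and 13446 in differentiating progenitors (log2 change -4.02 ± 0.14, adjusted p = 8.42e-08), while its relative Grb14 rose in differentiating over proliferating progenitors (67.0 ± 21.9 against 10.3 ± 4.2, log2 change 2.60 ± 0.36, adjusted p = 0.000834). Igfbp3, a binding protein of IGFs, rose to 668.7 ± 120 in neurons, against 27.7 ± 8.1 in differentiating progenitors (log2 change 4.57 ± 0.25, adjusted p = 5.93e-07). Dusp4, a phosphatase of MAP kinases, rose to 2157 ± 121 in differentiating progenitors, against 349.7 ± 110 in proliferating progenitors (log2 change 2.66 ± 0.20, adjusted p = 4.6e-05), and Socs2 to 951 ± 108 against 558.7 ± 33.9 (log2 change 0.76 ± 0.10, adjusted p = 0.000741).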

How the data were processed

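Poly-A RNA of 9 pools of sorted cells was sequenced in strand-specific libraries, per the labels. The submitters' processing notes name DESeq 1.8.1, bedtools 2.11, BWA, CASAVA 1.8.0 and the genome build mm9, with no roles. The strand setting of the counting is not stated in the labels or headers. The authors deposited a normalised score per gene and library, read counts scaled between libraries and rounded to whole numbers, with Ensembl 61 gene identifiers and gene lengths per the file headers. They also deposited the ratio of group means (fold) and an adjusted p-value per comparison. Since the scaled values are not raw counts, no count model was used.

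The model, fitted by limma 3.58.1 (R 4.3.3) to log2(value + 1) of all 9 libraries, had 3 group means, 6 residual degrees of freedom and a variance trend with intensity. The filter asked for 10 or more in 3 or more libraries and left 15828 of 21210 genes, with Benjamini-Hochberg adjustment over all of them. The fit was tested on simulated data. Python 3.11.15 did the rest. The reads per library were estimated from which small whole numbers occur in each library, and the estimates are not exact.

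Groups and replicate numbers came from the titles. Equal replicate numbers deviated together (r from 0.507 to 0.767 across genes for the 9 pairs, against -0.64 to 0.428 for other pairs), so a blocked fit by replicate number is given where it changes a call. The series' design text calls the libraries biological replicates. The members and gene lists were chosen with earlier results of these data known. Named genes are all members, up to 3 called genes per list and comparison with the smallest adjusted p, and 3 genes per member with the most similar course; the naming of others is marked. Some genes that this rule names are not reported here. List symbols were matched by symbol or by identifier through GENCODE M21. Alternatives were other pseudocounts, no filter, the block, only the groups compared, no trend, total-sum scaling, replicates 2 and 3 alone, and leaving out each library.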

Additional observations from a re-analysis of the deposited data

How the results depend on the processing

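Of the recomputed member changes, 412 kept their direction and their side of the threshold, 17 became called, 14 were no longer called and 4 turned sign. All 4 were small: Egfr in differentiating against proliferating progenitors (log2 change 0.01 in replicates 2 and 3 alone, 0.12 without differentiating progenitor replicate 3, 0.14 without proliferating progenitor replicate 1, with a range of -0.18 to 0.14 when any 1 library was left out) and Ret in the same comparison (-0.33 without differentiating progenitor replicate 1, with a range of -0.33 to 0.83). With the replicate block, genes called between differentiating and proliferating progenitors numbered 3793 higher and 3489 lower, against 2186 and 1758 without it, and 4 members were higher, against 0. Besides the calls given for Ntrk3, Erbb4, Igf1r and Met, the block changed no other member call. In replicates 2 and 3 alone, 2651 genes were lower and 2 members higher at that step.

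Leaving out 1 library at a time gave 1060 to 1877 lower genes there, with 1060 without proliferating progenitor replicate 2, 1147 without its replicate 3, and 1074 and 1109 without differentiating progenitor replicates 2 and 3. It gave 0 to 1 members higher and 2 to 3 lower there, 2 to 5 higher in neurons against differentiating progenitors and 3 to 5 higher in neurons against proliferating progenitors. The lowest counts, 2 and 3, came without neuron replicate 2 or 3. Ret did not pass the filter without any 1 neuron library or in replicates 2 and 3 alone, and has no value there. Total-sum scaling gave 3869 genes higher and 6605 lower in neurons against proliferating progenitors (5099 and 4924 as deposited), 3353 and 5589 in neurons against differentiating progenitors (4368 and 4183), and 1880 and 2254 between the progenitor populations. Igf1r in neurons against differentiating progenitors was also not called with no intensity trend (adjusted p = 0.0519), and Met there was called with a pseudocount of 5 (adjusted p = 0.0339) and with the groups compared fitted alone (adjusted p = 0.0499). The cause of these changes was not tested. Values near 0, as for Erbb3, Ret and Egfr in neurons, limit what can be called.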
